A study of Homo sapiens with 2 samples.

Results

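KLF genes encode Krüppel-like factors, transcription factors that bind GC-rich boxes and CACCC boxes in promoters through a block of zinc fingers at the end of the protein. The family shares this DNA-binding block with the SP factors, and its members differ in the stretch before it, which recruits corepressors or coactivators. In lymphocytes, KLF2 and KLF4 are known as restraints on division, and KLF2 also steers homing. Several other members are known as genes induced within hours by serum, TGF-beta or hormones.

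The 10 KLF genes described here were KLF2, KLF3, KLF4, KLF6, KLF9, KLF10, KLF11, KLF12, KLF13 and KLF16, found by symbol in both expression tables among 19096 gene symbols, each taken at its transcript with the highest mean level. The samples were P493-6 cells, a human B cell line labelled as B-cell lymphoma and carrying a c-Myc transgene repressed by tetracycline, grown in RPMI 1640 with FBS. The low c-Myc group was 1 library from cells at 0 h after release of the transgene and the high c-Myc group was 1 library at 24 h, so time after release and c-Myc level cannot be told apart. The libraries are called 0 h and 24 h. With 1 library per group no test was possible, and each value describes only these libraries of a single cell line. Synthetic RNAs had been added by cell number, which allows a second scale, per cell. Levels are RPKM (reads per kilobase of transcript and per set number of reads in the library), and "at least 2-fold" means a log2 ratio of 24 h over 0 h at or beyond 1 or -1, taken on log2(RPKM + 0.5).

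The libraries held about 103000000 and 105000000 reads by the spacing of their lowest values. MYC itself had an RPKM of 836 at 0 h and 2358 at 24 h, with reads of transgene and endogenous gene not separated. All 6 B cell markers examined were expressed (summed RPKM 3219 at 0 h and 1227 at 24 h). Among markers of other cells, 3 of 5 myeloid genes had a mean RPKM of at least 1 (summed RPKM of the 5, 150.6 and 35.6), as did 1 of 4 endothelial genes (7.75 and 2.65) and 1 of 4 T cell genes (9.12 and 1.70). None of 4 epithelial genes did, and KDR, CD3D, CD8A and KRT18 were listed at 0 in both libraries. These sums are shares of each library. On the per-cell scale the median log2 ratio of the measured markers was 1.37 for B cell, 0.20 for myeloid, 1.17 for endothelial and 0.42 for T cell genes. None of these markers was at least 2-fold lower per cell, against 0.0876% of expressed genes. The part of these transcripts in the KLF values was not tested. In bulk RNA the number of cells of a type and the RNA in each cannot be told apart.

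The promoters of 3 members are shown because they stand for the 3 patterns in the data: KLF2 had nearly the same RPKM in both libraries, KLF6 was lower and KLF16 was higher at 24 h. Each line is the 250 bases before the RefSeq start, 5′ to 3′ on the gene's strand, in build GRCh38.p14, which is not the hg18 build of the reads. Capitals mark GC boxes (GGGCGG on either strand) and the E-box CACGTG, the core site bound by MYC with MAX. They lie at chr19:16324576-16324825 on the plus strand (KLF2), chr10:3785210-3785459 on the minus strand (KLF6) and chr19:1863580-1863829 on the minus strand (KLF16).
KLF2: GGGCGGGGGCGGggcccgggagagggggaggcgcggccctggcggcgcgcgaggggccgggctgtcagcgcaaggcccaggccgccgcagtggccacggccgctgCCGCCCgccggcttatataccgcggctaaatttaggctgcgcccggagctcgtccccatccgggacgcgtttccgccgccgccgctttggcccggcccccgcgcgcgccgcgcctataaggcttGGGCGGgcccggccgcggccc
KLF6: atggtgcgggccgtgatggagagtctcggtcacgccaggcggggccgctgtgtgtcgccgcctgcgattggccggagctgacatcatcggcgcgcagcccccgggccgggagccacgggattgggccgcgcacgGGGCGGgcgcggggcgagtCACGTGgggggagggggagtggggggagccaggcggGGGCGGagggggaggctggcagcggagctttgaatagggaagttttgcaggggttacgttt
KLF16: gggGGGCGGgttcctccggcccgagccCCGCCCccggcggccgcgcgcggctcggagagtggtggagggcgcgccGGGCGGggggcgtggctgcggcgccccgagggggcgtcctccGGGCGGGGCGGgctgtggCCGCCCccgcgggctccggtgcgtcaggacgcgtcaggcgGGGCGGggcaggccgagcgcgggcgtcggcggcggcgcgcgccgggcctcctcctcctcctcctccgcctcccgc

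The KLF16 window had a GC content of 86.4% and held 7 GC boxes, against 80% and 4 for KLF2 and 72.4% and 2 for KLF6. The KLF6 window held 1 E-box, at positions -97 to -92 from the start, and the KLF2 and KLF16 windows held none. RefSeq gave 12 promoter windows for 8 of the 10 members, with no entry used for KLF3 and KLF10. CACGTG was in 3 of the 12 (KLF4, KLF6 and the upstream start of KLF11), against 6.34% of all 35116 promoter windows of that length. GGGCGG, read on both strands, was in 8 of the 12, against 42.6% of all windows. Beside the 3 windows shown, there were 2 GC boxes at the upstream start of KLF11 and 6 at its other start. KLF4 and 1 start of KLF12 had 4 each, and KLF13 had 3. Any link between the number of GC boxes and the ratios was not tested. CACCC, the other box that KLF proteins bind, was in 4 of the 12 (1 each for KLF11 and KLF13 and 2 for KLF12), against 54.7%, and these letters can overlap a GC box. The cyclic AMP element TGACGTCA was in 1, for KLF11, against 1.65%, CCAAT was in 4 against 32.0%, and TATAAA was in none against 10.7%. A match is a description of letters and shows no binding.

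On the deposited scale the question was which KLF genes had a higher or lower RPKM after release. KLF6 and KLF10 were more than 3-fold lower at 24 h, KLF16 was more than 5-fold higher, and KLF2 and KLF13 differed by under 1.1-fold. Of the 10 members, 9 had a ratio, because KLF4 was at 0 in both libraries, and 7 had a mean RPKM of at least 1. At least 2-fold lower were 2 of the 9, against 9.74% of the 10272 expressed genes (mean RPKM of at least 1), and at least 2-fold higher was 1 of the 9, against 24.9%. All 3 were among the 7 expressed members. After centring on the median of all expressed genes those shares were 14.8% and 19.8%, and the member counts were again 2 and 1. With the GC content of transcripts corrected for, they were 3, with KLF2 added, and 0, with KLF16 at 0.93, against 8.64% and 22.1% of expressed genes. The median log2 ratio was -0.29 over the 9 members, -0.41 over the 7 expressed members, and 0.22 over all expressed genes.

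**Figure D1:**
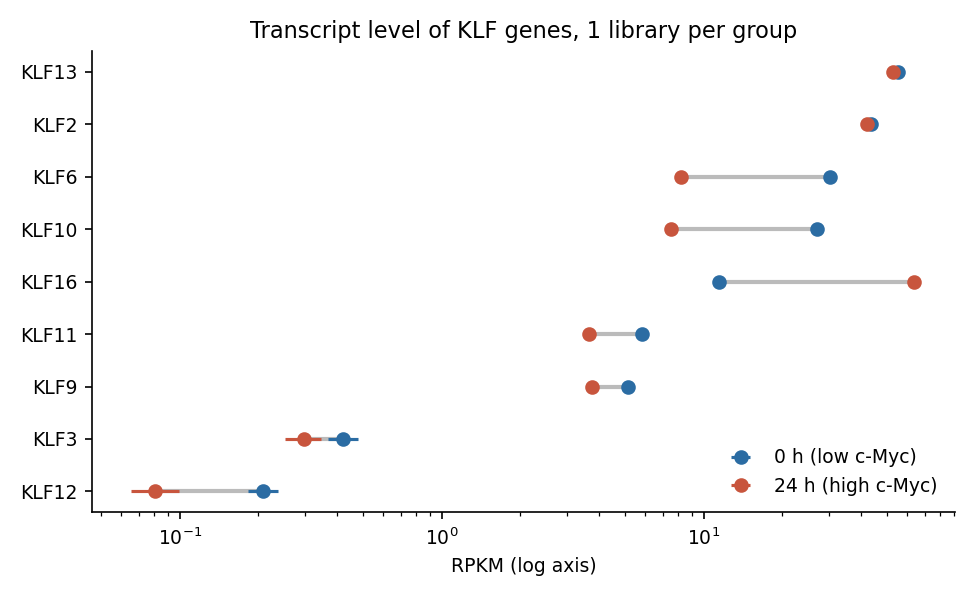
RPKM (log axis) of the 9 KLF genes detected, at 0 h (blue) and 24 h (red); bars are 95% Poisson intervals on reads and cover counting error only, and KLF4 is not drawn because it was at 0. KLF6 and KLF10 lie to the left in red, KLF16 lies to the right, from 11.4 to 63.5, and the points of KLF2 and KLF13 overlap.

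KLF2, which keeps lymphocytes quiescent and activates homing receptor genes, stood at an RPKM of 43.5 at 0 h and 42.2 at 24 h. Its log2 ratio without a pseudocount was -0.04, with a 95% counting interval of -0.09 to -0.001. That interval covers reads only, and the GC correction took KLF2 to -1.20, past 2-fold. The KLF2 transcript was thus among the more abundant members in both libraries, ranking 955 and 1660 among the 10272 expressed genes. KLF4, which restrains B cell division and is known from reprogramming to pluripotency, was listed at 0 in both libraries. At these depths and its length of 2813 bases, 3 reads would give an RPKM of 0.0104 at 0 h and 0.0101 at 24 h. The upper ends of the 95% counting intervals for its count of 0 were 0.0127 and 0.0125. KLF6, a broadly expressed factor induced early by growth and stress signals, stood at 30.3 at 0 h and 8.17 at 24 h, 3.71-fold lower. That is a log2 ratio of -1.83 with the pseudocount, and -1.89 without it (counting interval -1.94 to -1.84).

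The tables list 3 transcripts of KLF6, and all 3 were lower at 24 h. NM_001160125 is the one given above. NM_001300 stood at an RPKM of 29.9 and 8.38 (3.57-fold lower) and NM_001160124 at 27.9 and 6.52 (4.29-fold lower). These transcripts share most of their sequence, so their values are not independent.

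KLF3 and KLF12 are repressors that act through the corepressor CtBP, and both were near the bottom of the family. KLF3 stood at an RPKM of 0.42 at 0 h and 0.297 at 24 h, on about 222 and 160 reads. Its log2 ratio without a pseudocount was -0.498 (counting interval -0.81 to -0.20). KLF12 stood at 0.208 and 0.0809, on about 228 and 91 reads, which is 2.57-fold lower without a pseudocount (log2 ratio -1.36, counting interval -1.72 to -0.999). With the pseudocount of 0.5, which exceeds both of its values, the log2 ratio of KLF12 was only -0.29. Without a pseudocount 3 of the 9 members were thus at least 2-fold lower, against 11.9% of expressed genes. KLF12 is itself below the level that defines expressed genes, so that share does not cover genes like it. Of the expressed members only KLF6 and KLF10 were at least 2-fold lower without a pseudocount.

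KLF9, KLF10, KLF11, KLF13 and KLF16 belong to the branch known to bind the SIN3A corepressor. KLF10, an early target of TGF-beta signals, stood at an RPKM of 27.1 at 0 h and 7.48 at 24 h, 3.62-fold lower (log2 ratio -1.79, and -1.86 without a pseudocount, counting interval -1.92 to -1.79). Its other transcript, NM_001032282, was 3.66-fold lower, from 25.1 to 6.86. KLF11, a close relative of KLF10 that is also induced by TGF-beta, stood at 5.81 and 3.64, a log2 ratio of -0.61. Its other 2 transcripts had log2 ratios of -0.603 and -0.605. KLF9, a gene induced by glucocorticoids and thyroid hormone, stood at 5.14 and 3.74, a log2 ratio of -0.41. KLF10 and KLF11 thus lay on the same side of 0, but only KLF10 was past 2-fold.

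KLF13, known as an activator of the chemokine gene CCL5 in T cells, was the most abundant member before release. Its RPKM was 55.4 at 0 h and 52.7 at 24 h, a log2 ratio of -0.07. KLF16, which binds GC-rich boxes and is among the less studied members, stood at 11.4 at 0 h and 63.5 at 24 h. That is 5.55-fold higher, a log2 ratio of 2.42 (2.47 without a pseudocount, counting interval 2.42 to 2.52). The correction for transcript GC content took it to 0.93, which ends the 2-fold call. Only 1 row stands for KLF16, so no second transcript can be set beside it. By log2 ratio KLF16 lay at percentile 95.2 of all expressed genes, and KLF6 and KLF10 lay at percentiles 1.48 and 1.65.

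The order of the members differed at the top. At 0 h the RPKM was highest for KLF13, followed by KLF2, KLF6, KLF10, KLF16, KLF11, KLF9, KLF3, KLF12, KLF4, and no pair of neighbours had overlapping 95% counting intervals. At 24 h the order was KLF16, KLF13, KLF2, KLF6, KLF10, KLF9, KLF11, KLF3, KLF12, KLF4. There the intervals of KLF9 (3.74) and KLF11 (3.64) overlapped, and those of no other neighbours did. Among expressed genes KLF16 had rank 3825 at 0 h and 1029 at 24 h, while KLF6 had ranks 1472 and 5517 and KLF10 had 1668 and 5748.

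The summed RPKM of the 10 members was almost the same in both libraries, 179.2 and 181.8, while its make-up differed. KLF16 took 6.39% of the sum at 0 h and 34.9% at 24 h. KLF6 took 16.9% and 4.49%, and KLF10 took 15.1% and 4.12%. KLF2 and KLF13 together with these 3 made up most of the sum in both, with KLF2 at 24.2% and 23.2% and KLF13 at 30.9% and 28.99%. Without KLF16 the sum was 167.8 and 118.3, 1.42-fold lower at 24 h.

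**Figure D2:**
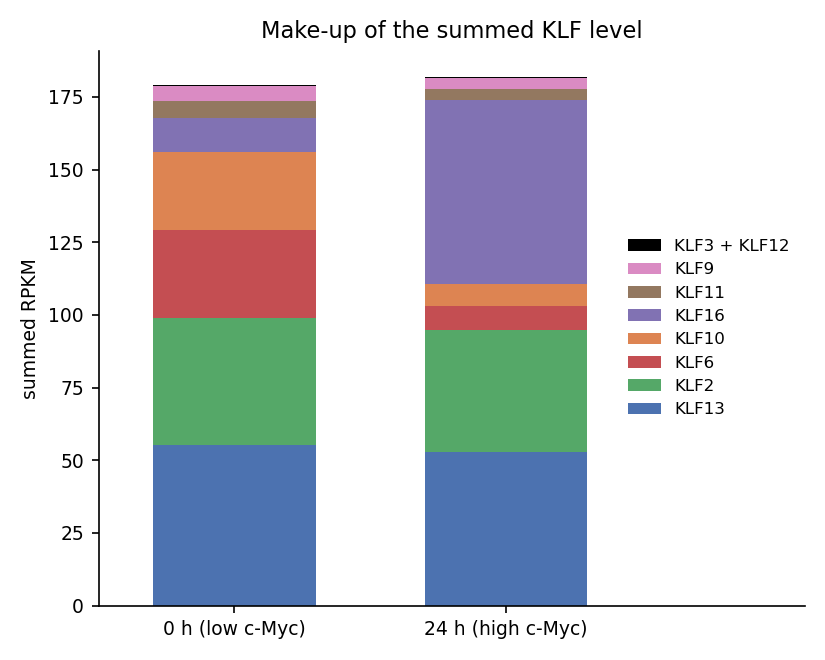
Summed RPKM of the KLF genes at 0 h and 24 h, 1 library each, split by gene. The bars reach 179.2 and 181.8; the KLF16 block is 11.4 at 0 h and 63.5 at 24 h, and the KLF6 and KLF10 blocks are smaller at 24 h.

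Per cell the question was how these transcripts differed once the added synthetic RNAs were the common measure. The 46 synthetic RNAs used (RPKM of at least 1 at both times) were a median of 5.88-fold higher at 0 h. The interquartile range over synthetic RNAs was 4.51 to 7.18. That range is the spread between single synthetic RNAs and not the error of their median, which every per-cell value carries. An error in cell number or in the addition, shared by all synthetic RNAs, would not show in it. KLF16 was 32.6-fold higher per cell at 24 h, KLF2 was 5.71-fold higher and KLF13 was 5.60-fold higher, while KLF6 and KLF10 were only 1.59-fold and 1.63-fold higher. At the quartiles of the synthetic RNAs these folds ran from 25 to 39.8 for KLF16, from 1.22 to 1.94 for KLF6 and from 1.25 to 1.98 for KLF10. On the log2 scale with the pseudocount the per-cell ratio was 4.98 for KLF16, 2.51 for KLF2, 2.49 for KLF13, 2.14 for KLF9 and 1.95 for KLF11. It was 0.73 for KLF6 and 0.77 for KLF10. For the weakly expressed KLF3 and KLF12 the pseudocount raises the per-cell value, which was 2.35 and 2.27 with it and 2.06 and 1.19 without it.

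Of the 9 members with a ratio, 7 were at least 2-fold higher per cell, or 5 of the 7 expressed members, against 97.1% of expressed genes. None was at least 2-fold lower, against 0.0876%. KLF6 and KLF10 were the 2 that were not, as were 2.88% of expressed genes (296 of 10272). The median per-cell log2 ratio was 2.27 over the 9 members, 2.14 over the 7 expressed members, and 2.78 over expressed genes. The authors' own values renormalized to the synthetic RNAs gave 26.2-fold for KLF16, 4.68-fold for KLF2, 4.67-fold for KLF13, 1.25-fold for KLF6 and 1.28-fold for KLF10. By those values 7 of the 9 members were at least 2-fold higher, as were 92.1% of expressed genes, and none was at least 2-fold lower, against 0.253%.

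**Figure D3:**
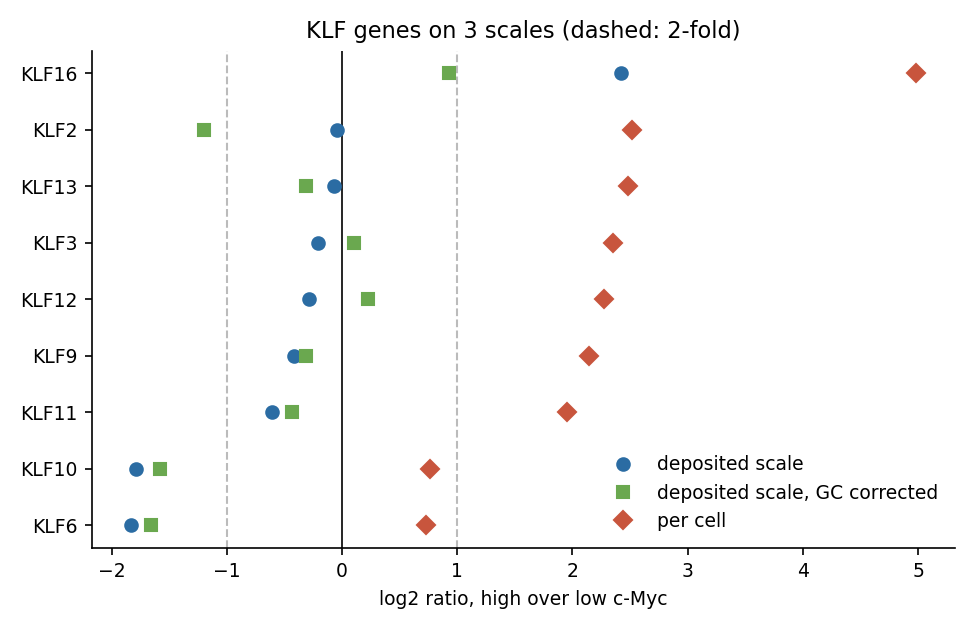
log2 ratio of high over low c-Myc for the 9 KLF genes with a ratio, on the deposited scale (blue circles), after correction for transcript GC content (green squares) and per cell (red diamonds); dashed lines mark 2-fold. KLF6 and KLF10 are the only members left of -1 on the deposited scale and left of 1 per cell, and the GC correction takes KLF16 to 0.93 and KLF2 to -1.20.

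Transcript composition moved with these ratios. Over the 9948 expressed genes whose GC content was known, ratios were higher for GC-rich transcripts, and the members lay at both ends of that range. The transcripts of KLF16 and KLF2 had a GC content of 67.8% and 65.2%, against a median of 50.3% and a 90th percentile of 62.6% over expressed genes, and only 1.11% of expressed genes were as GC-rich as KLF16. Genes near the GC content of KLF16 had a running median log2 ratio of 1.72, and those near KLF2 one of 1.38. After correction for this trend the log2 ratio of KLF16 was 0.93, no longer past 2-fold, and that of KLF2 was -1.20, past 2-fold in the other direction. KLF6 and KLF10, at 45.8% and 45.3%, had corrected log2 ratios of -1.65 and -1.58. KLF3 and KLF12, at 41.5% and 38.8%, changed sign to 0.11 and 0.23. That change of sign rests on the pseudocount of 0.5, which exceeds the RPKM of both genes in both libraries. Their uncorrected log2 ratios without a pseudocount were -0.498 and -1.36, and the correction was not applied to those. After the correction 3 of the 9 members were at least 2-fold lower, against 8.64% of expressed genes, and none was at least 2-fold higher, against 22.1%. Whether GC content sets any of these ratios was not tested.

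**Figure D4:**
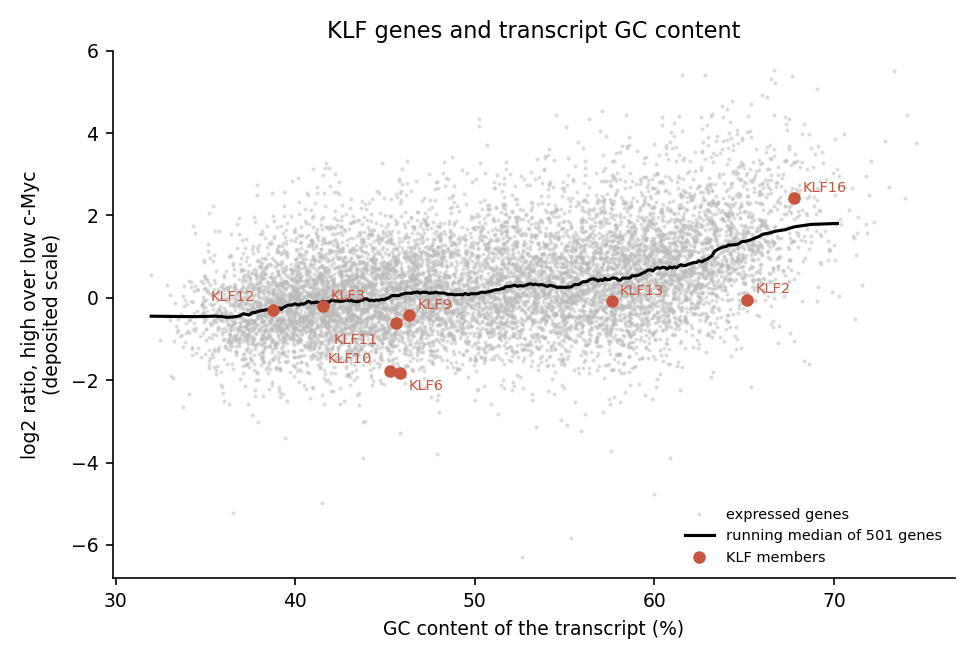
Deposited log2 ratio against transcript GC content for expressed genes (grey), their running median (black line) and the 9 KLF genes with a ratio (red). KLF16 lies 0.70 above the line and KLF2 lies 1.43 below it, at nearly the same GC content.

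The 3′ untranslated regions of the members were also counted for ATTTA, the core of AU-rich elements that shorten mRNA life. KLF2 had 3.56 ATTTA per kilobase, the most of the 10, and KLF13 had 0.893, the fewest. These rest on few matches, 3 in 843 bases for KLF2 and 5 in 5600 bases for KLF13. The matches were 6 for KLF6, 3 for KLF10 and 2 for KLF16. Per kilobase KLF6 had 1.69, KLF10 had 2.22 and KLF16 had 0.971, against a median of 1.38 over expressed genes and an upper quartile of 3.03.

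All other KLF and SP genes in the tables were read too, whatever their level. KLF7 and KLF8 were the only other KLF genes with a mean RPKM of at least 1, and both were at least 2-fold lower at 24 h. KLF7, known from neurons and fat tissue, stood at an RPKM of 10.9 and 4.61, a log2 ratio of -1.16, or -0.91 once corrected for GC content. KLF8, another CtBP-binding repressor, stood at 6.49 and 2.37, a log2 ratio of -1.28. Over all 17 KLF genes in the tables, 4 were at least 2-fold lower and 1 was higher, where expressed genes gave 9.74% and 24.9%. All 5 were among the 9 expressed genes of the 17. The summed RPKM of the 17 was 196.7 and 189.0. KLF1, KLF5, KLF14 and KLF15 were at an RPKM of 0.141 or less in both libraries, and KLF17 was listed at 0 in both.

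The SP factors, which bind the same GC boxes, lay between the thresholds. SP1, the ubiquitous activator of GC-box promoters, stood at an RPKM of 14.8 and 10.8, a log2 ratio of -0.44. SP2, SP3 and SP4 had log2 ratios of -0.32, -0.36 and -0.41. SP6 and SP7 were at 0.052 or less in both libraries, and SP5, SP8 and SP9 were listed at 0. Per cell KLF7, KLF8 and these 4 SP genes were all at least 2-fold higher, as were 97.1% of expressed genes.

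**Figure D5:**
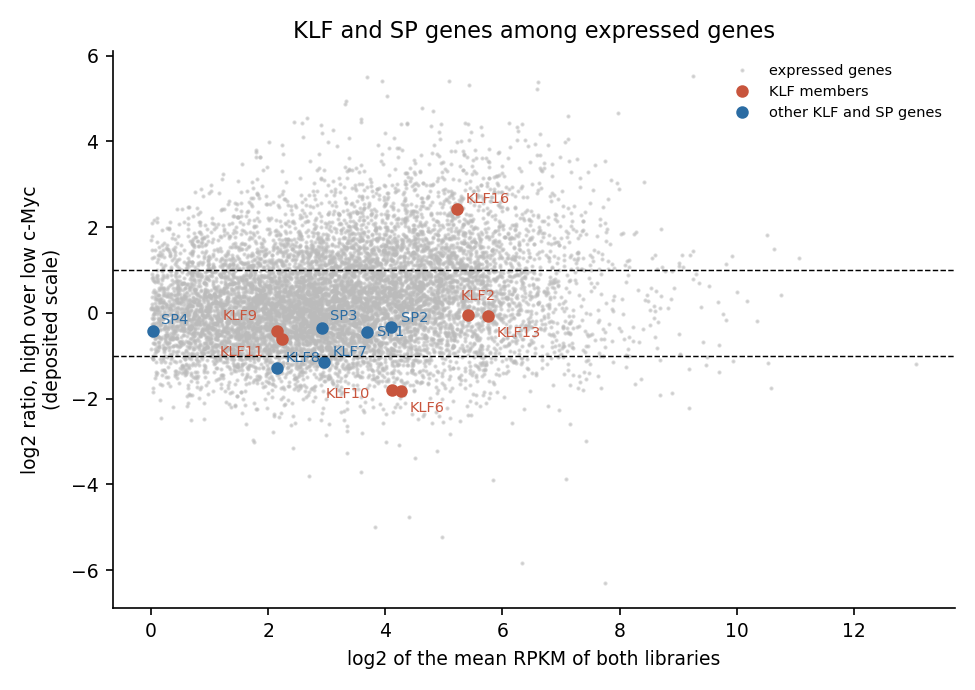
Deposited log2 ratio against the mean level of both libraries (log2 RPKM) for expressed genes (grey), the 7 KLF members with a mean RPKM of at least 1 (red) and the other KLF and SP genes at that level (blue); dashed lines mark 2-fold. KLF6, KLF10, KLF7 and KLF8 lie under the lower line and KLF16 lies above the upper one.

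Of the 11 listed corepressor genes, 10 had a mean RPKM of at least 1, while CTBP2 stood at 0.354 and 0.404. Of the 10 measured genes of the SIN3 and CtBP complexes, 3 were past 2-fold upward (HDAC2, SAP30 and CTBP1) and none downward, around a median log2 ratio of 0.41. Over expressed genes these shares were 24.9% and 9.74%, so 3 of 10 is close to the background. HDAC2, a histone deacetylase, was highest at 1.63 (RPKM 1.85 and 6.79), and the deacetylase HDAC1 was lowest at -0.21 (60.3 and 52.1). Of the 4 acetyltransferase coactivators, KAT2A had a log2 ratio of 1.81 and its paralog KAT2B one of -2.02, with RPKM of 12.9 and 46.7 for KAT2A and 5.07 and 0.874 for KAT2B. CREBBP and EP300 stood at 0.23 and -0.43. Of the 4 ubiquitin ligases known to act on KLF proteins, none was past 2-fold, with log2 ratios of 0.48 for WWP1, 0.18 for FBXW7, -0.02 for SMURF1 and -0.197 for BTRC.

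Among genes upstream of KLF2 and KLF4, 3 of 6 measured genes were at least 2-fold lower at 24 h, against 9.74% of expressed genes, and none was higher, against 24.9%. Their median log2 ratio was -0.64. MEF2C, a MADS-box factor that activates KLF2, was lowest at -1.69 (RPKM 33.0 and 9.88). The kinase MAPK7, which acts on MEF2 factors, was highest at 0.42. KLF2 itself differed by 1.03-fold on the deposited scale, but its log2 ratio was -1.20 after the GC correction. Of 5 measured genes that KLF2 or KLF4 regulate in lymphocytes, 1 was past 2-fold downward and none upward (median log2 ratio -0.19), where expressed genes gave 9.74% and 24.9%. That gene was S1PR1, the receptor that lets lymphocytes leave lymphoid tissue, at an RPKM of 9.88 and 2.43 (log2 ratio -1.82). CDKN1A, the p21 inhibitor of cyclin-dependent kinases, was highest at 0.99 (32.2 and 64.5).

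The TGF-beta pathway, which induces KLF10 and KLF11, had members on both sides. Of 8 measured genes 3 were at least 2-fold lower (9.74% over expressed genes) and 1 was higher (24.9%), with a median log2 ratio of -0.60. SKIL, an inhibitor of SMAD factors that is itself a TGF-beta target, was lowest at -2.40 (RPKM 7.54 and 1.02), and the ligand TGFB1 was highest at 1.72 (41.6 and 138.7), which was 0.81 after the GC correction. Of the 4 glucocorticoid response genes set beside KLF9, TSC22D3 was at least 2-fold lower at -2.83 (60.8 and 8.13). NR3C1, the glucocorticoid receptor, stood at -0.90, PER1 at 0.67 and FKBP5 at 0.98. After the GC correction 2 genes upstream of KLF2 and KLF4 were past 2-fold downward, as were 2 of the TGF-beta pathway with none upward, and FKBP5 was past it upward at 1.30. The corrected shares over expressed genes were 8.64% downward and 22.1% upward. No list was tested, and these counts describe its members only.

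The expressed genes nearest to KLF6 over the 2 libraries, by distance on log2(RPKM + 0.5), were GLRX (0.075), ZCCHC7 (0.088) and DRAM2 (0.153). The nearest to KLF16 were DEAF1 (0.016), SURF2 (0.090) and DUS3L (0.093). Likeness over 2 values says only that level and ratio were alike in this pair of libraries.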

How the data were processed

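ERCC ExFold synthetic RNAs were added to extracted RNA by cell number, per the labels' protocols, and strand-keeping libraries were made from polyadenylated RNA. Per the submitters' processing notes, Bowtie and build hg18 were used. Not given in the sources used here are the counting tool, its filters and whether it used strand, so overlapping or antisense genes could share reads. The authors deposited RPKM values per transcript and, per the file headers, a signal column of RPKM renormalized to the synthetic RNAs, which served only as an alternative.

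Each symbol was taken at its row with the highest mean RPKM. Per-cell log2 ratios are the deposited log2 ratio minus the synthetic RNAs' median log2 ratio. Depth was read from the steps of RPKM times length: 52.8% and 49.4% of values up to 8 reads lay within 0.05 of a whole read, against 10% by chance. Approximate reads gave exact 95% intervals (Poisson for levels, binomial for ratios), covering only counting error because amplified copies of a molecule are not independent. Lengths, GC content and untranslated regions came from GENCODE release 29, paired by accession for 96.8% of expressed genes, and differ from the authors' annotation. The GC correction subtracted a running median over 501 genes, centred on the overall median. Recovery of depth, synthetic RNA ratio and planted fold changes was tested on simulated data with counting error only. The GC correction was not part of that test.

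Members and lists were chosen with earlier results of these data known. Markers of 1 other cell type are not reported here. Named genes were all members, all other KLF and SP genes, the highest and lowest measured gene of each other list (all where 4 or fewer were measured), and the 3 genes nearest to the lowest and highest member. Python 3.11.15, numpy 2.4.6, pandas 2.3.3, scipy 1.17.1 and matplotlib 3.10.9 were used.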

Additional observations from a re-analysis of the deposited data

How the results depend on the processing

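With 1 library per group no difference here has a replicate check. The counts of members past 2-fold and their medians were recomputed with pseudocounts of 0.1 and 1, only for members with a mean RPKM of at least 1, with the mean of each symbol's rows, after GC correction, and under other scalings. With no pseudocount, an alternative chosen after seeing the data, KLF12 joined the lower members (3 in all). The GC correction left 0 members past 2-fold upward on the deposited scale, where 1 had been. The authors' renormalized column gave a median per-cell log2 ratio of 1.75 in place of 2.27. KLF6 and KLF10 were at least 2-fold lower on the deposited scale and under 2-fold per cell in each of 9 alternatives (KLF6 -2.24 to -1.65 deposited and 0.32 to 0.90 per cell, KLF10 -2.16 to -1.58 and 0.35 to 0.97). On the deposited scale KLF16 was at least 2-fold higher in 8 of 9 (0.93 to 2.47) and in 9 of 9 per cell (3.49 to 5.03). Some of the 9 could not differ from the main value. The restriction to expressed members leaves the ratio of any single gene as it was. The mean of rows does the same for a gene with 1 row, such as KLF16. KLF2 ranged from -1.20 (GC correction, past 2-fold) to -0.04 on the deposited scale and from 1.36 to 2.55 per cell, and KLF13 from -0.63 to -0.07 and from 2.22 to 2.52. No paired analysis was possible because each group had 1 library.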
